A study of Homo sapiens with 6 samples.

Results

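The IL6 family, gp130 and STAT3 axis was followed in MDA-MB-436, a triple-negative breast cancer (TNBC) cell line with mutant BRCA1, with and without silencing of MUC1. The axis was taken as 10 genes named by symbol in a table of 37887 rows: the cytokines IL6, LIF and IL11, the receptor chains IL6ST (gp130), IL6R, LIFR and OSMR, the kinase JAK1, the transcription factor STAT3 and the feedback inhibitor SOCS3. All 10 were found and all 10 passed the filter on low counts that left 15355 genes for testing. The treatment labels read DMSO or doxycycline, whereas the sample titles name the DMSO group as control shRNA. Cells of both groups were taken to carry the same stably integrated, tetracycline-inducible MUC1 shRNA. They were given 0.1% DMSO as vehicle (control, n = 3) or 500 ng/ml doxycycline (shMUC1, n = 3), and poly(A) RNA was sequenced with a stranded kit. A single shRNA in a single line was used, no cells given doxycycline without the MUC1 shRNA were analysed here, and the sources used here do not give the treatment time of this line. The drug and the silencing therefore cannot be told apart.

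Most cytokines of the IL6 family signal through gp130. IL6 and IL11 first bind their own receptor, IL6R or IL11RA, and the complex recruits a pair of gp130 chains, whereas LIF joins gp130 to LIFR, and oncostatin M (OSM) joins gp130 to LIFR or OSMR. The JAK kinases bound to these chains then phosphorylate STAT3, which enters the nucleus and drives transcription. SOCS3 is among the first genes induced, and its protein binds gp130 and JAK and shuts the signal off. Because STAT3 is activated by phosphorylation, transcript counts show the abundance of the parts and not the activity of the pathway.

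Library totals ran from 18678307 to 27825546 counts, with shMUC1 replicate 3 the smallest. MUC1, the targeted gene, had 93, 84 and 102 counts in control and 72, 51 and 34 in shMUC1 libraries, and fell by 44.2% (log2 fold change -0.84, SE 0.214; adjusted p 0.00119 by the quasi-likelihood test of edgeR with Benjamini-Hochberg adjustment, used throughout). Of the markers of the line, ESR1 and PGR averaged 6.33 and 1 counts per library, ERBB2 was at 44.7 ± 2.41 counts per 1000000 counts of a library (CPM; SD, n = 3) in control, and KRT8, KRT18 and VIM were abundant. Within those markers KRT8 and KRT18 rose (log2 fold changes 0.95 and 1.02) and VIM and ERBB2 fell by 0.78 and 0.20 on the log2 scale, so the groups also differed in cytoskeletal genes. Mitochondrially encoded mRNA took from 3.35% to 4.17% of control and from 4.94% to 5.22% of shMUC1 counts.

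Sequences are shown for the genes on which the results turn: IL11, the cytokine that fell, beside IL6, which did not pass the test, and OSMR and IL6R, the receptors that rose. They are RefSeq windows on GRCh38.p14 around annotated transcription starts (9 of the 10 genes had a window). Windows of 300 bases were searched on both strands for TTCCNGGAA and TTCNNNGAA (STAT sites, of which the first is contained in the second), TGANTCA (AP-1), a core NF-kB motif and an IFN-stimulated response element. Of 35116 human windows, 1.15%, 7.66%, 7.71%, 1.91% and 3.57% held these motifs, in that order. Capitals mark matches to any of them.
IL11, 250 bases before the start, chr19:55370464-55370713, minus strand: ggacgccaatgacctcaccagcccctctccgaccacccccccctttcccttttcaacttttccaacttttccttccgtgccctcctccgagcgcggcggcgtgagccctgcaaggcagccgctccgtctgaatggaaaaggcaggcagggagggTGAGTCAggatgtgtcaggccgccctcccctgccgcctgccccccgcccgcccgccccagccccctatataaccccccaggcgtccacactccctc
IL6, 250 bases before the start, chr7:22726950-22727199, plus strand: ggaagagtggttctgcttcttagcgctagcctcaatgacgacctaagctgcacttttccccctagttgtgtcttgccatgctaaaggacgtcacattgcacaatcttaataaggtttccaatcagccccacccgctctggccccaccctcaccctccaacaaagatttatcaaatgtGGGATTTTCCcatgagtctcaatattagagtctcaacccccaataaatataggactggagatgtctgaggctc
OSMR, from 230 bases before to 20 bases after the start, chr5:38845782-38846031, plus strand: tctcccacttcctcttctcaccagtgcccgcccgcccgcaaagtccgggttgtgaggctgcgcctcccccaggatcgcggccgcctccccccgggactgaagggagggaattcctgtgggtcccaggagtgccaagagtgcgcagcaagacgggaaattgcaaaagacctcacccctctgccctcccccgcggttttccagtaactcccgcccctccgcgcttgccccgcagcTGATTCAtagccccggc
IL6R, from base 26 to base 50 after the start, chr1:154405368-154405392, plus strand: cgtccgccgctcTGAGTCAtgtgcg
IL11 held an AP-1 match that began 96 bases before its start, and OSMR and IL6R held AP-1 matches at bases 4 and 38 after theirs. IL6 held the NF-kB match, 73 bases before its start. TTCNNNGAA was found only in LIFR, in 2 of its 3 windows, and none of the windows of the 9 genes held TTCCNGGAA. The matches are descriptions of sequence, and binding was not measured. Positions are counted from RefSeq starts, of which, among the 4 genes shown, only that of IL11 is also the start of the gene in GENCODE 29. The SOCS3 windows held no match and are not shown. Neither reached the start of SOCS3 in GENCODE 29, at base 78360077 of chromosome 17. The bases next to that start were therefore not searched, and nothing is read about motifs there.

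Of the 10 genes, 6 rose and 2 fell in shMUC1 cells at an adjusted p under 0.05 by edgeR, and IL6 and IL6ST did not pass. Among all 15355 genes tested, 25.2% rose and 23.6% fell by the same rule. Deep genes are called more readily, and among the 10414 genes with a mean count of at least 146.7, the lowest among the 10, 32.8% rose and 27.1% fell. With a fold change over 2 in addition, SOCS3 alone rose and IL11 alone fell, where the rule called 2.21% of all genes higher and 3.74% lower. The CPM values of the groups did not overlap for 7 of the 10 genes, with shMUC1 above in 5 (28.1% of all genes) and below in 2 (26.8%). The median log2 fold change was 0.18 over the 10 genes and 0.00058 over all genes tested. SOCS3 ranked 610 and IL11 ranked 717 among the 15355 genes by size of change, whereas IL6ST ranked 14774.

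**Figure D1:**
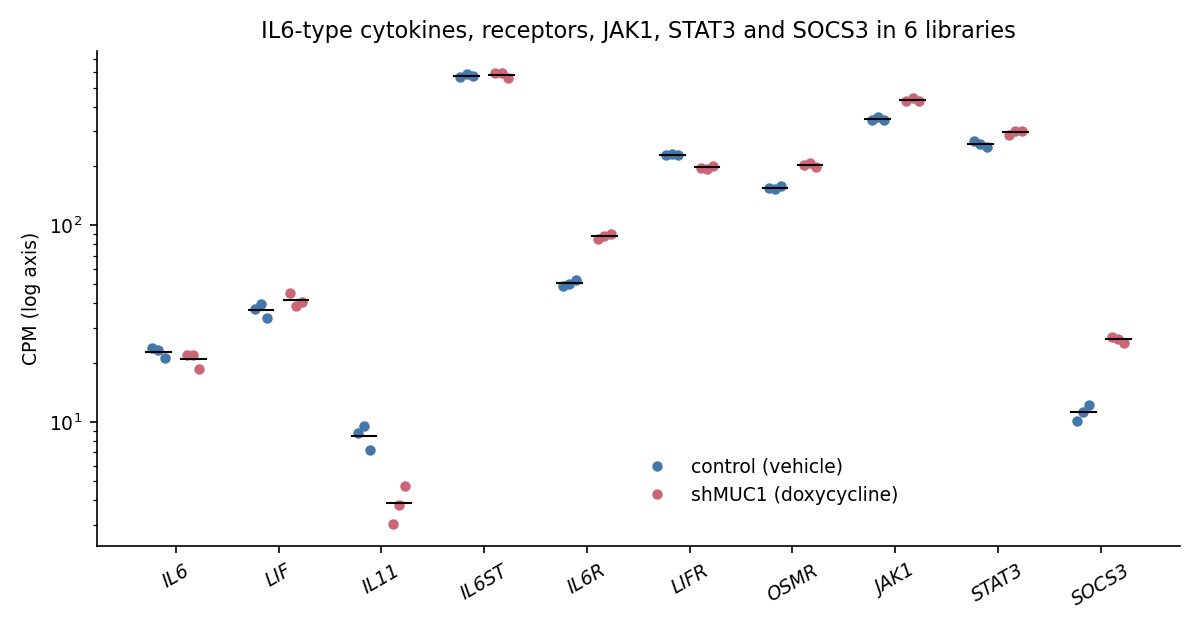
CPM on a log axis for each of the 10 genes, with 1 point per library (blue control, red shMUC1) and a line at the mean of 3 libraries. The groups are clear of each other for IL11, IL6R, LIFR, OSMR, JAK1, STAT3 and SOCS3, and overlap for IL6, LIF and IL6ST.

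The 3 cytokines did not move together. IL11, a cytokine tied to bone turnover, fibrosis and breast cancer metastasis to bone, fell by an estimated 2.23-fold, whereas IL6 did not pass the test and LIF was marginally higher. IL11 (chr19:55364389-55370463, minus strand, GRCh38) had 192, 232 and 186 counts in control and 84, 98 and 88 in shMUC1 libraries. These equal 8.76, 9.53 and 7.20 CPM against 3.04, 3.81 and 4.73 CPM. All 3 shMUC1 libraries were below every control library, and the spread of IL11 within the groups was wide for its level. Its log2 fold change was -1.16 (SE 0.161), a 2.23-fold lower level, with an edgeR adjusted p of 1.43e-07. It had the fewest counts of the 10 genes. In bulk RNA, fewer cells that express a gene and less of its RNA per cell cannot be told apart.

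IL6, the founding cytokine of the family and an inducer of the acute phase response, stood at 23.9, 23.2 and 21.0 CPM in control and at 21.9, 22.0 and 18.7 CPM in shMUC1 libraries. The groups overlapped, and shMUC1 replicate 3 was the lowest of the 6 libraries. The log2 fold change was -0.11 (SE 0.0854) with an edgeR adjusted p of 0.286, and the 95% interval of the fold ran from 0.82 to 1.04. A fall of IL6 transcripts like that of IL11 thus lay outside the interval.

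LIF, which sustains stem cells in culture and acts on many tissues, stood at 37.6, 40.0 and 33.8 CPM in control and at 45.4, 39.0 and 40.7 CPM in shMUC1 libraries. The groups overlapped, since control replicate 2 was above shMUC1 replicate 2. Its log2 fold change was 0.17 (SE 0.0692) with an edgeR adjusted p of 0.0405. This call rested on single libraries: without control replicate 3 the value was 0.0925 (adjusted p 0.321), without shMUC1 replicate 1 it was 0.103 (adjusted p 0.30) and without control replicate 1 it was 0.181 (adjusted p 0.0647). DESeq2 gave an adjusted p of 0.0801. Summed over LIF, IL6 and IL11, cytokine transcripts were at 68.3 ± 5.61 CPM in control and 66.4 ± 3.43 CPM in shMUC1 cells (SD, n = 3 each), a difference within the spread between replicates.

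The receptor chains split, with IL6R and OSMR higher, LIFR lower and the shared chain not past the test. IL6ST encodes gp130, the chain that IL6, LIF and IL11 all use. It stood at 564, 587 and 573 CPM in control and 591, 591 and 562 CPM in shMUC1 libraries, so the groups overlapped. The log2 fold change was 0.02 (SE 0.0303) with an edgeR adjusted p of 0.694, and the 95% interval of the fold ran from 0.969 to 1.06. Its pseudogene IL6STP1 had from 14 to 42 counts per library, against at least 10454 for IL6ST.

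IL6R, the chain that binds IL6 itself and sets which cells respond to it, rose most among the receptors. It stood at 49.2, 50.3 and 52.9 CPM in control and at 85.2, 88.4 and 89.7 CPM in shMUC1 libraries, with every shMUC1 library far above every control library. The log2 fold change was 0.79 (SE 0.0498), a 1.73-fold higher level, with an edgeR adjusted p of 5.52e-16. IL6R is also a gene of leukocytes, and a list of 12 leukocyte, endothelial and fibroblast markers was therefore read. Its summed level was from 13.8 to 16.6 CPM in control and from 11.8 to 14.9 CPM in shMUC1 libraries. Of 6 markers tested, the leukocyte genes PTPRC, CD14 and CSF1R rose and PECAM1, COL1A1 and COL3A1 fell. PTPRC, PECAM1 and CSF1R had means of only 12.2, 21.2 and 23.2 counts per library, and COL1A1 values overlapped between groups. CD79A, LYZ, CDH5 and VWF had too few counts to test, and CD3E and LUM had no count in any library. PTPRC, which marks all nucleated blood cells, was at 0.242 ± 0.148 CPM in control and 0.743 ± 0.198 CPM in shMUC1 cells (SD, n = 3 each), whereas IL6R was at 50.8 ± 1.91 and 87.7 ± 2.30 CPM. The part of such markers in the result was not tested.

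OSMR, the oncostatin M receptor chain, stood at 155, 152 and 159 CPM in control and at 203, 207 and 197 CPM in shMUC1 libraries. The 3 shMUC1 libraries were all higher than the controls. It rose by 30.3% (log2 fold change 0.38, SE 0.0364, edgeR adjusted p 3.34e-11). OSMR shares 229 exon bases with RICTOR on the opposite strand, and whether reads were counted by strand is not given in the sources used here. RICTOR itself was at 165 ± 2.87 CPM in control and 156 ± 6.54 CPM in shMUC1 cells (SD, n = 3 each), with a log2 fold change of -0.08 and an edgeR adjusted p of 0.0763.

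LIFR, the chain for LIF and the other partner of gp130 for OSM, stood at 227, 229 and 226 CPM in control and at 196, 193 and 200 CPM in shMUC1 libraries. The groups were narrow and did not overlap, with shMUC1 below. LIFR fell by 13.7% (log2 fold change -0.21, SE 0.0343, edgeR adjusted p 2.38e-06). Its antisense gene LIFR-AS1 shares 629 exon bases and had 110 counts over the 6 libraries, against a mean of 5088 counts per library for LIFR.

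**Figure D2:**
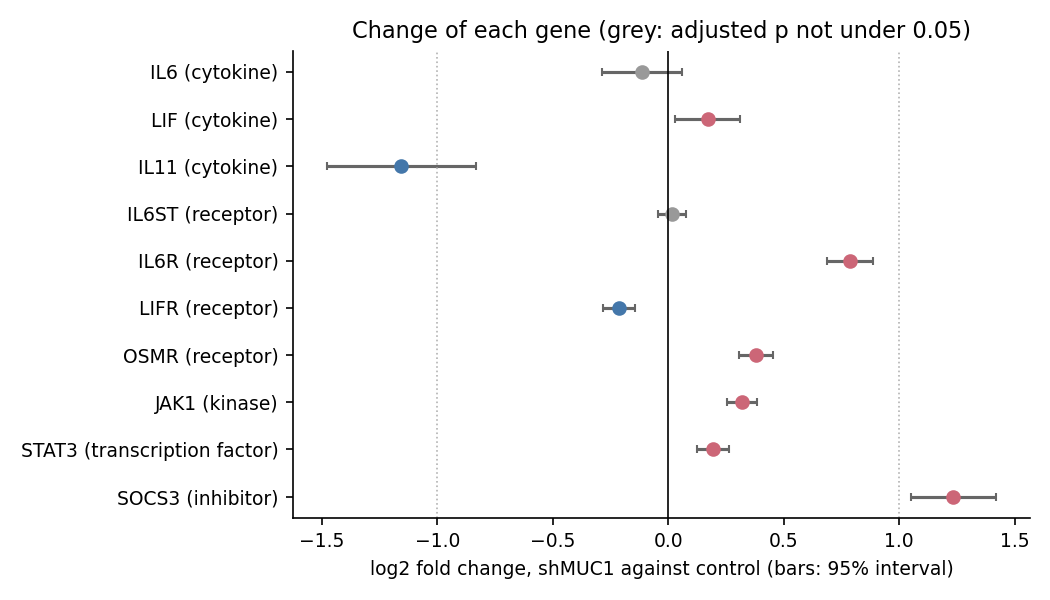
Log2 fold change of shMUC1 against control from edgeR for each gene, with bars for the 95% interval and dotted lines at a 2-fold change. SOCS3 (1.23) and IL11 (-1.16) lie beyond 2-fold, and IL6 and IL6ST are drawn in grey because their adjusted p was not under 0.05.

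Inside the cell, transcripts of the kinase, the transcription factor and the inhibitor all rose, the inhibitor by far the most. JAK1, the kinase that gp130 signaling depends on most, stood at 341, 354 and 341 CPM in control and at 425, 442 and 427 CPM in shMUC1 libraries. The groups did not overlap. JAK1 rose by 24.9% (log2 fold change 0.32, SE 0.0316, edgeR adjusted p 7.51e-11).

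STAT3, the transcription factor of the axis, stood at 268, 260 and 251 CPM in control and at 289, 301 and 301 CPM in shMUC1 libraries. Every shMUC1 library was above every control library, although the gap between the nearest pair was small. It rose by 14.4% (log2 fold change 0.19, SE 0.0341, edgeR adjusted p 9.72e-06). This change was below the median size of all changes measured, which was 0.245 on the log2 scale.

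SOCS3 (chr17:78356778-78360077, minus strand, GRCh38) had 222, 274 and 314 counts in control and 750, 682 and 469 in shMUC1 libraries. These equal 10.1, 11.3 and 12.2 CPM against 27.1, 26.5 and 25.2 CPM, so that all shMUC1 libraries lay above the controls by more than 2-fold. Its log2 fold change was 1.23 (SE 0.0917), a 2.35-fold higher level with a 95% interval from 2.06 to 2.67, and an edgeR adjusted p of 5.06e-14. The feedback inhibitor thus rose in the same libraries in which IL6R, OSMR, JAK1, STAT3 and, marginally, LIF were higher. In these libraries IL11 and LIFR fell, and IL6 and IL6ST did not pass the test.

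To compare the genes with each other, CPM was divided by kilobases of annotated exon. Exons of all annotated transcripts were counted, which may not be those expressed here, and the order depends on these lengths. In CPM, IL6ST was above JAK1 in both groups (575 against 345.5 in control, 581 against 431 in shMUC1 cells). LIF was above IL6 in control by CPM (37.1 against 22.7). Per kilobase, control cells held 61.9 ± 1.27 CPM of IL6ST, 54.7 ± 1.21 of JAK1 and 29.5 ± 0.999 of STAT3 (SD, n = 3 each). OSMR, LIFR, IL6, LIF, IL6R, SOCS3 and IL11 followed at 21.7, 19.2, 11.0, 9.36, 7.87, 4.09 and 3.18 CPM per kilobase, and no neighbours in this order overlapped between libraries, although the lowest library for IL6 (10.2) and the highest for LIF (10.1) nearly met. In shMUC1 cells JAK1 came first at 68.3 ± 1.45, ahead of IL6ST at 62.6 ± 1.81 CPM per kilobase. LIF, IL6 and SOCS3 formed a run at 10.5, 10.1 and 9.61 CPM per kilobase in which neighbours overlapped. IL6R moved from the eighth to the sixth place, at 13.6 ± 0.356 CPM per kilobase.

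**Figure D3:**
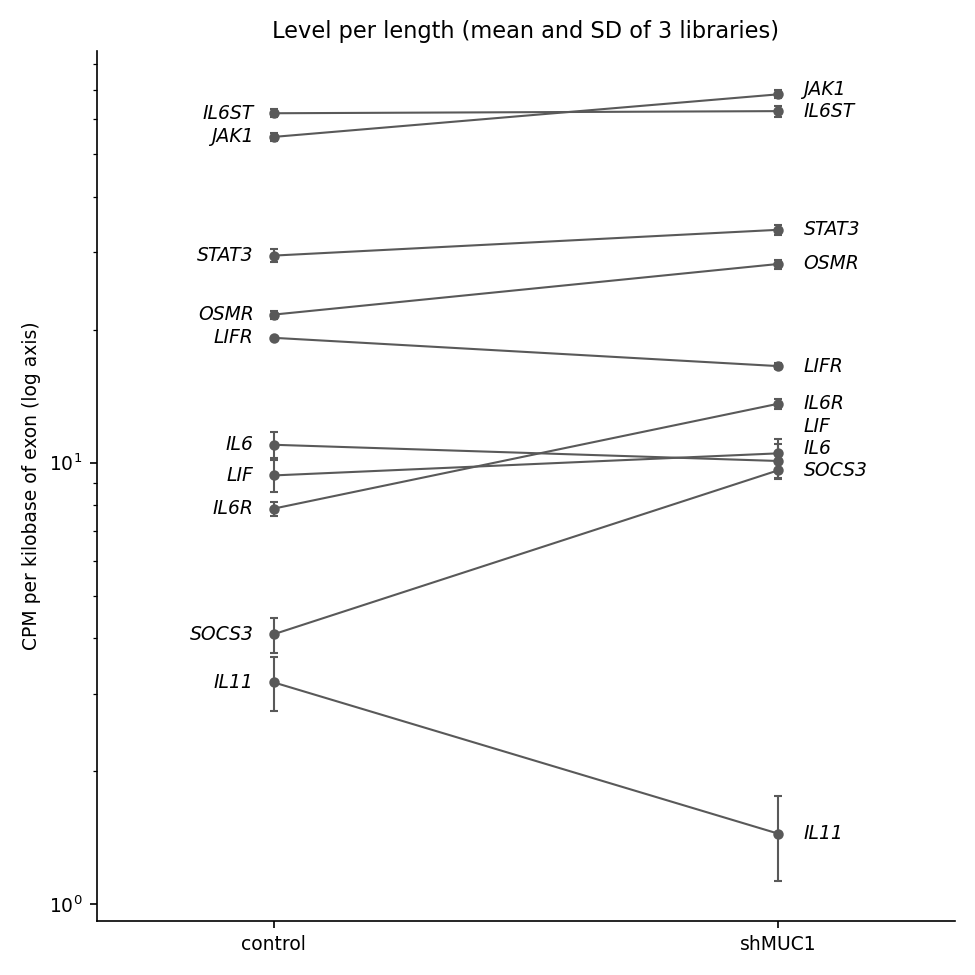
Mean level per kilobase of exon on a log axis in control (left) and shMUC1 cells (right), with bars for the SD of 3 libraries and gene names moved apart where they would collide. JAK1 and IL6ST change places at the top, IL6R and SOCS3 climb, and IL11 falls away from the rest to 1.45 CPM per kilobase. The order depends on the exon lengths, and in CPM IL6ST stays above JAK1 in both groups.

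The balance between genes was read as a ratio within each library, per length, for 4 pairs of receptor chains and 2 pairs of cytokines. IL6R to IL6ST was 0.126, 0.123 and 0.133 in control and 0.208, 0.215 and 0.230 in shMUC1 libraries, so gp130 transcripts stayed in excess while the gap narrowed. OSMR to IL6ST was 0.35 ± 0.0126 in control and 0.451 ± 0.00505 in shMUC1 cells (SD, n = 3 each). OSMR to LIFR was 1.13 ± 0.0307 in control and 1.70 ± 0.0685 in shMUC1 cells (SD, n = 3 each), a shift between the alternative partners of gp130 for OSM. LIFR to IL6ST was 0.31 ± 0.00518 in control and 0.265 ± 0.012 in shMUC1 cells (SD, n = 3 each). Among the cytokines, LIF to IL6 was 0.852 ± 0.0408 and 1.05 ± 0.111, and IL11 to IL6 was 0.289 ± 0.0267 and 0.146 ± 0.0457, in control and shMUC1 cells (SD, n = 3 each). None of the 6 ratios overlapped between groups, and each gave an exact two-sided permutation p of 0.1 (0.1 after adjustment over the 6), the smallest that 3 against 3 allows. The ratios share genes and are not independent of each other. Of all single genes tested, 28.1% lay above and 26.8% below in shMUC1 cells without overlap.

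The rest of the pathway was read from lists of further ligands, receptors, kinases, STATs, inhibitors and targets, in which the 10 genes are included. Each count below stands against the 25.2% of all tested genes that rose and the 23.6% that fell, or 32.8% and 27.1% of the deeper genes, and nothing particular to a list is read from its count. Of 11 ligand and ligand subunit genes, 7 were tested, 3 rose and 2 fell. EBI3, a subunit of IL27 and IL35, was at 4.92 ± 0.176 CPM in control and 9.27 ± 1.95 CPM in shMUC1 cells (SD, n = 3 each) and rose (log2 fold change 0.93, edgeR adjusted p 1.54e-06). CLCF1, a ligand of the ciliary neurotrophic factor receptor, was at 43.9 ± 4.84 CPM in control and 38.1 ± 0.572 CPM in shMUC1 cells (SD, n = 3 each), and fell (log2 fold change -0.20) although the groups overlapped. Without control replicate 1 or control replicate 3 only 1 ligand gene fell. OSM, CTF1 and IL31 had too few counts to test, and IL27 had none, where 3 counts in the smallest library would be 0.161 CPM. OSM, a ligand of OSMR, had 2 counts in control replicate 1 and 0 in the other 5 libraries.

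Of 8 receptor genes, all were tested, 2 rose and 4 fell. Beside IL6R and OSMR, the rises, and LIFR, the falls were in the receptors for other family members. IL27RA went from 10.8 ± 1.56 to 4.87 ± 0.301 CPM, a log2 fold change of -1.14, and IL31RA from 4.79 ± 0.928 to 2.67 ± 0.0804 CPM, a log2 fold change of -0.85 (SD, n = 3 each). CNTFR went from 2.19 ± 0.423 to 0.567 ± 0.115 CPM (SD, n = 3 each) and had a mean of only 32.8 counts per library. IL11RA, the receptor of IL11, was at 2.90 ± 0.116 and 3.48 ± 0.39 CPM (SD, n = 3 each), and its edgeR adjusted p was 0.306.

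Among the 4 JAK family kinases, JAK1 rose and JAK2, which pairs with many cytokine receptors, fell by 0.22 on the log2 scale (edgeR adjusted p 0.0132). The count of kinases that fell was 0 without shMUC1 replicate 2 and 2 without control replicate 1. JAK3 and TYK2 had log2 fold changes of -0.03 and -0.19 with edgeR adjusted p of 0.874 and 0.0965. Per kilobase of exon, JAK1 was at 54.7 ± 1.21 CPM in control, far above JAK2 at 4.68 ± 0.0562 CPM (SD, n = 3 each). Of 5 other STAT genes, STAT5B (log2 fold change 0.33), STAT6 (0.40) and STAT4 (2.06) rose, the last from 0.401 ± 0.246 to 1.68 ± 0.504 CPM (SD, n = 3 each) on a mean of 24.0 counts. STAT2 and STAT5A had log2 fold changes of -0.02 and -0.23 and edgeR adjusted p of 0.855 and 0.214.

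The inhibitors of the pathway, and the SOCS genes among them, went both ways. Of 16 inhibitors of JAK and STAT signaling, 15 were tested, 6 rose and 5 fell, with a median log2 fold change of 0.0087. PTPN6 had too few counts to test. PTPN1, a phosphatase that acts on JAK2 and TYK2, was at 299 ± 7.99 CPM in control and 412 ± 7.40 CPM in shMUC1 cells (SD, n = 3 each) and rose (log2 fold change 0.46, edgeR adjusted p 7.65e-15). PIAS3, which blocks DNA binding by STAT3, was at 63.9 ± 3.96 CPM in control and 46.7 ± 2.72 CPM in shMUC1 cells (SD, n = 3 each) and fell (log2 fold change -0.45, edgeR adjusted p 3.08e-08). Within the SOCS genes, SOCS2 (log2 fold change 0.89, on a mean of 41.2 counts) and SOCS6 (0.29) rose beside SOCS3, whereas SOCS7 fell by 0.46, SOCS4 by 0.33 and SOCS5 by 0.18 on the log2 scale. For SOCS5 the CPM values of the groups overlapped. SOCS1, the closest relative of SOCS3 in how it inhibits JAK, was at 4.59 ± 0.32 and 3.81 ± 0.891 CPM (SD, n = 3 each), with an edgeR adjusted p of 0.19.

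Genes known as STAT3 targets went both ways. Of 26 listed, 22 were tested, 10 rose and 6 fell, with a median log2 fold change of 0.12, and 3 of the 26 (SOCS3, OSMR and IL6ST) are also among the 10 genes above. The largest rises among targets with at least 50 counts were in SOCS3, in CEBPD (log2 fold change 0.84), a transcription factor of the acute phase response, in BCL3 (0.76), a nuclear cofactor of NF-kB, and in NNMT (0.72), a nicotinamide methyltransferase. The 6 targets that fell were PIM1 (log2 fold change -0.40), a kinase that promotes survival, CCND1 (-0.30), which encodes cyclin D1, the adhesion gene ICAM1 (-0.23), the anti-apoptotic genes MCL1 (-0.20) and BCL2L1 (-0.17), and HIF1A (-0.07), the hypoxia factor. CEBPD was at 3.12 ± 0.553 and 5.61 ± 0.117 CPM, BCL3 at 18.3 ± 1.45 and 31.1 ± 0.745 CPM (SD, n = 3 each). The acute phase genes SAA1, SAA2 and LBP had too few counts to test, and SERPINA3 had none. A count of targets higher or lower does not measure STAT3 activity, since each of these genes has other regulators.

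IL6 transcription is driven by NF-kB and AP-1 and its mRNA is subject to decay, and 14 genes of this setting were read beside it: NF-kB and AP-1 subunits and regulators, mRNA decay factors, and the cytokines IL1A, IL1B and CXCL8. All 14 were tested, 4 rose and 7 fell, with a median log2 fold change of -0.14. IL1B and CXCL8, inflammatory cytokines that NF-kB and AP-1 also drive, fell: IL1B from 21.9 ± 0.813 to 12.8 ± 1.01 CPM, and CXCL8 from 4.30 ± 0.36 to 1.62 ± 0.394 CPM (SD, n = 3 each). IL1A did not pass the test (log2 fold change 0.0056, edgeR adjusted p 0.967). ATF3, a stress-induced repressor of IL6, rose with a log2 fold change of 0.79. ZC3H12A, whose product (Regnase-1) degrades IL6 mRNA, was at 10.2 ± 1.28 CPM in control and 17.5 ± 1.87 CPM in shMUC1 cells (SD, n = 3 each) and rose (log2 fold change 0.78).

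**Figure D4:**
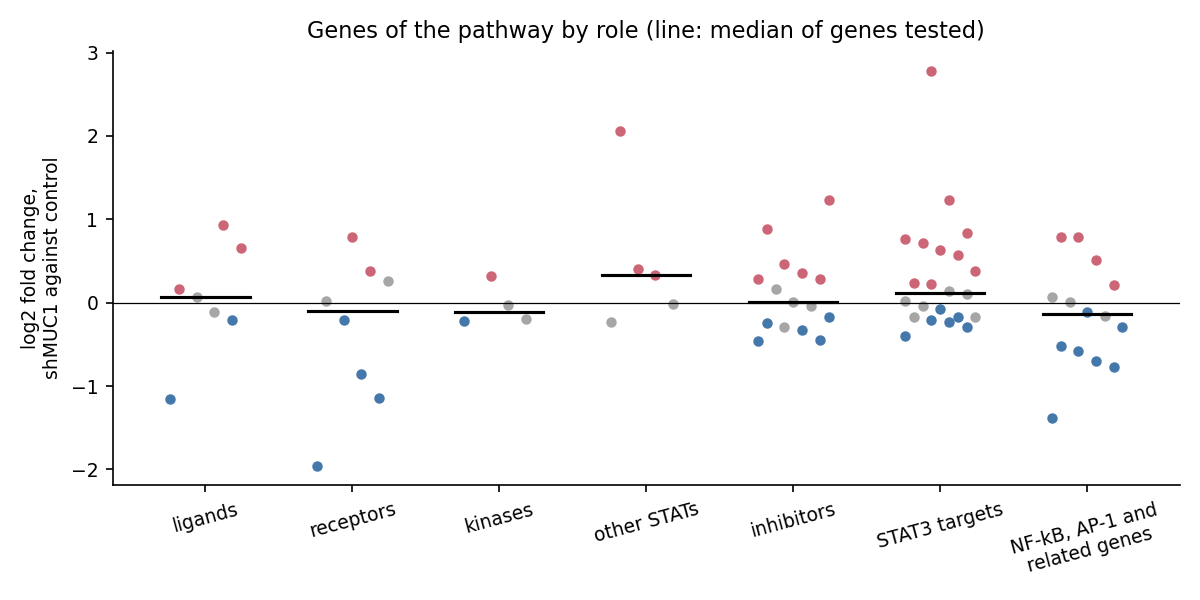
Log2 fold change of each tested gene in 7 lists, red for genes that rose, blue for genes that fell and grey for genes whose adjusted p was not under 0.05, with a line at the median. Rises and falls occur side by side among ligands, receptors and inhibitors, and the highest STAT3 target point is LCN2, with a mean of 13.7 counts.

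The 7-base word ATCAGTA had come out of an earlier scan of these same data as linked to lower expression, and was therefore looked for in the 10 genes. It was in the annotated 3' UTR of 12.8% of 13011 tested genes, whose median log2 fold change was -0.12, against 0.03 for the others. Since the word was picked from these data, the medians repeat that choice and lend it no independent support. Genes with and without the word were not matched for the length of the 3' UTR. Of the 10 genes, OSMR alone held it, at a site shown with the word in capitals.
OSMR 3' UTR, chr5:38934162-38934188, plus strand, GRCh38: ctccatagacATCAGTAttctgccatc
OSMR rose, and neither IL11 nor LIFR, the genes that fell, held the word in an annotated 3' UTR. Any part of the word in the changes of these genes was not tested.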

How the data were processed

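Raw counts, 1 row per gene symbol and 1 column per library, were deposited from TruSeq Stranded mRNA libraries. The submitters' processing notes name CASAVA 1.8.2, STAR 2.7.9a, featureCounts, DESeq2 1.24.0 and GRCh38.p7 without roles. The annotation release, strand setting and handling of read pairs are not given in the sources used here. Groups came from the treatment label, since the titles call the vehicle samples control shRNA. Cells were cultured in triplicate per the labels, and p-values measure the spread between these cultures. No libraries looked duplicated (chi-square over degrees of freedom at least 2.79 for every pair in a group).

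Counts were tested in edgeR 4.0.16 (R 4.3.3; two-sided quasi-likelihood test) with TMM scaling, filterByExpr and group as the only term, with Benjamini-Hochberg adjustment over 15355 genes. SE were derived from the F statistic. CPM used TMM-scaled totals. Exon lengths, coordinates and 3' UTRs came from GENCODE 29 (98.1% of rows matched by symbol, the 10 genes included), which may differ from the authors' annotation. Intervals and the floor of 3 counts cover counting error and the spread between libraries only, since there are no molecular identifiers. The pipeline was tested on simulated data.

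Alternatives were DESeq2 1.42.0, its size factors within edgeR, scaling by totals, no filter on counts, a filter at a mean of 50 counts, limma-voom (limma 3.58.1), a replicate block, halved counts, a fold change over 2 and each library left out. The genes and lists were chosen with earlier results of these data known and written from general knowledge. From each list, up to 4 called genes with at least 50 counts and the largest changes were named, and genes too shallow to test. CNTFR, STAT4, LCN2, SOCS1, SOCS2, SOCS4, SOCS5, SOCS6, the STAT3 targets that fell, IL11RA, RICTOR and IL6STP1, genes that complete small counts and the list genes given as not passing were named after their values were seen. A gene that this rule named among the ligands is not reported here.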

Additional observations from a re-analysis of the deposited data

How the results depend on the processing

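IL6, IL11, IL6R, LIFR, OSMR, JAK1, STAT3 and SOCS3 kept their direction and their side of an adjusted p of 0.05 under all 14 alternatives that refitted the data, with ranges on the log2 scale from -1.31 to -1.0 for IL11, 1.17 to 1.29 for SOCS3, 0.764 to 0.811 for IL6R, -0.236 to -0.199 for LIFR, 0.359 to 0.403 for OSMR, 0.297 to 0.34 for JAK1, 0.157 to 0.22 for STAT3 and -0.179 to -0.0416 for IL6. LIF lost its call with library totals only (0.148), a mean of at least 50 counts (0.147) and DESeq2 (0.166), and ranged from 0.0925 to 0.229 without one library. IL6ST, never called, reversed sign with library totals only (-0.00565) and a mean of at least 50 counts (-0.00652). These causes were not tested. A fold change over 2 left 339 higher and 575 lower genes by construction, and did not call IL6R (0.787), OSMR (0.382), JAK1 (0.32), LIFR (-0.213), STAT3 (0.194) or LIF (0.17). Without one library the count of kinases lower ranged from 0 (without shMUC1 replicate 2) to 2 (without control replicate 1), and that of ligands lower from 1 (without control replicate 1 or control replicate 3) to 2. Replicate numbers did not pair the libraries, since same-numbered libraries deviated with correlations of 0.0167, -0.0311 and -0.0359, and with the replicate block LIF was at 0.165 and no call among the 10 genes changed. Halved counts were tried because about 70% of values from 1 to 20 were even, and kept the same calls. Depth limits IL11 most, with at most 232 counts per library.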

Other observations

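SOCS3 was the called gene of the axis with the largest change, and the genes with the nearest profiles over the 6 libraries were sought, by Euclidean distance between log2 CPM values centred on their means. PLEKHA2, an adaptor that binds phosphoinositides, was nearest (distance 0.103), at 46.6 ± 2.80 CPM in control and 104 ± 5.27 CPM in shMUC1 cells. CKMT1A, a mitochondrial creatine kinase, followed (distance 0.108), at 2.80 ± 0.277 and 7.55 ± 0.303 CPM, and its count is uncertain because CKMT1B is a near-identical copy. CDCP1, a transmembrane substrate of SRC family kinases, was the third (distance 0.131), at 98.8 ± 3.58 and 223 ± 6.61 CPM (SD, n = 3 each). With 2 groups, such likeness mostly repeats the size of the difference between them, and it was chosen from 15355 genes.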
